A study of Mus musculus with 7 samples.

Results

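The 10 genes described here, Prrx1, Prrx2, Msx1, Meox1, Meox2, Foxc1, Foxc2, Foxd1, Tbx15 and Tcf21, encode transcription factors of embryonic mesenchyme, the loose tissue that fibroblasts come from. They were taken by name, through every array probe whose gene name or accession leads to one of them, which gave 21 of 41174 probes and all 10 genes among 27583 genes and unnamed probes. By the brightest probe, 7 of these 10 RNAs were still well above background in cultures of hepatocyte-like cells made from fibroblasts. Of the 7, Prrx2 and Foxc1 were called lower than in the fibroblasts, 3.35-fold and 3.40-fold, beside 13.2% of all tested genes called lower. The Prrx2 call is a narrow one, lost in 8 of 14 other settings of the processing, and the Foxc1 call was lost in 1 of 14. Whether every cell in these cultures was converted was not tested. Foxc2 and Meox2 fell further, since their brightest probes went from clear signals to signals not well above background, at least 61.6-fold and at least 47.9-fold lower. A second Meox2 probe did not pass the test and was still above background in 1 iHep type. Prrx1, Prrx2, Foxc1 and Tbx15 stayed far above the level of the adult hepatocyte array, and Tcf21 was measured on the hepatocyte array alone.

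The arrays hold 3 groups of C57BL/6 mouse cells, labelled in a single colour (Cy3). Mouse embryonic fibroblasts (MEF) had 3 arrays, from cells prepared separately from embryos of 13.5 days post coitum. Induced hepatocyte-like cells made from MEF (iHep) had 3 arrays, 1 for each of the types labelled 4α1, 4α2 and 4α3, called types 1, 2 and 3 here. Such cells are known to be made by adding Hnf4a together with a Foxa factor, but the labels used here do not say what their last digit stands for or whether a type is a clone or a mixed culture. Hepatocytes of adult mouse liver had 1 array, and the number of animals behind it is not given.

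The difference between MEF 2 and MEF 3 was no larger than that between repeated spots within an array, so the arrays were averaged and counted as 1 sample, giving n = 2 for MEF, n = 3 for iHep and n = 1 for hepatocytes. MEF 1 shared slide 1 with the 3 iHep arrays, MEF 2 and MEF 3 were on slide 2, and the hepatocyte array was alone on slide 3, so that slide and the hepatocyte group cannot be told apart. The hepatocyte array had the lowest 75th percentile of signal (608) and MEF 2 the highest (1484), and between 60.2% and 68.7% of probes were well above background. All 12 fibroblast markers listed were well above background on every MEF and iHep array, with a summed linear level of 1450 to 1538 on MEF, 139 to 305 on iHep and 12.9 on the hepatocyte array. Of the 11 hepatocyte markers on the array, 2 were well above background on MEF, 9 or 10 on iHep and all 11 on the hepatocyte array. All 10 epithelial markers were called higher in iHep than in MEF, beside 10.1% of all tested genes.

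As background, most of these factors are read as marks of where a mesenchymal cell came from in the embryo and of the signals it met there. Paired-type and muscle segment homeobox proteins pattern the limb and face under bone morphogenetic protein, hedgehog and fibroblast growth factor signals. Forkhead proteins Foxc1 and Foxc2 act together in somites, eye, heart and vessels. Adult hepatocytes come from endoderm, and the mesenchymal cells of the liver are mainly its stellate, portal and mesothelial cells.

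Proximal promoter sequences are shown for 4 members that stand for 4 patterns, namely a gene lower but still on in iHep (Foxc1), a gene still on whose difference from MEF did not pass the test (Msx1), a gene whose brightest probe was no longer above background in iHep (Meox2) and a gene not above background in the fibroblasts at all (Tcf21). Each is the stretch of 250 bases that ends just before the start site in RefSeq, build GRCm38.p6, read 5′ to 3′ along the gene's strand, with every CG pair in capitals. Foxc1 lies on the plus strand at chr13:31806396-31806645, Msx1 on the minus strand at chr5:37824586-37824835, Meox2 on the plus strand at chr12:37108290-37108539 and Tcf21 on the minus strand at chr10:22820144-22820393.
Foxc1: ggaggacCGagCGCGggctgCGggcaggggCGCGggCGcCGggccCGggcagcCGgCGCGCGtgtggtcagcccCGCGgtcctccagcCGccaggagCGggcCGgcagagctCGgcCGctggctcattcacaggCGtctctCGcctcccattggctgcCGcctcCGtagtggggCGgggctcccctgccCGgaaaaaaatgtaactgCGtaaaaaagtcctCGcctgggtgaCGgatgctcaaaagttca
Msx1: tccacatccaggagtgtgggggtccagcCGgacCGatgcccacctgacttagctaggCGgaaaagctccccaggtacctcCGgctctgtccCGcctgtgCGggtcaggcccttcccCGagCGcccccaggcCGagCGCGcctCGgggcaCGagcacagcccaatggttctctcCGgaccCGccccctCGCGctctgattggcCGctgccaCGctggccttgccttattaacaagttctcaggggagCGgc
Meox2: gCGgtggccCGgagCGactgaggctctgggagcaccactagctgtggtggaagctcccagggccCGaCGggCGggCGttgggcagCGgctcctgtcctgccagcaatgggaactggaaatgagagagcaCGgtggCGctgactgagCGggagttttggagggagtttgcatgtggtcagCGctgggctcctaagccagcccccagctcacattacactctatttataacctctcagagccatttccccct
Tcf21: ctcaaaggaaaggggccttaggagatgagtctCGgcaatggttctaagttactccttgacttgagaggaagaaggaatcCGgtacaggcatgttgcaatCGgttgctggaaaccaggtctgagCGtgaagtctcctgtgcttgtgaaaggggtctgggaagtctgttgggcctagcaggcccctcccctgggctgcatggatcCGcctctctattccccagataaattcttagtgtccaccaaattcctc
The Foxc1 window holds 29 CG pairs, the Msx1 window 20, the Meox2 window 12 and the Tcf21 window 5, against a median of 6 over the 32851 windows in the RefSeq table. Only 5.94% of all windows hold more CG pairs than Foxc1 does, 16.3% hold more than Msx1, 31.5% more than Meox2 and 50.4% more than Tcf21. The table holds windows for 7 of the 10 members. Among these 7, Prrx2 has 21 CG pairs, Foxd1 12 and Prrx1 4, and for Prrx1 and Prrx2 the start site used lies inside the outer ends of the gene. The letters TATAAA, or TTTATA when read on the other strand, occur in the Meox2 window alone among the 7, and in 12.4% of all windows. These counts describe the sequence, and methylation or binding at these promoters was not measured.

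Levels are log2 signals from which the 75th percentile of the same array was subtracted, so that 0 marks that percentile. A level is not set against that of another gene, because probes differ in brightness. A change is a difference of mean levels with its standard error, and a gene is called where the limma p, adjusted by the Benjamini-Hochberg method over 19133 tested genes, is under 0.05. Such p-values reflect nothing but the spread among these samples, and among iHep that is the spread from type to type. Where no array of the dimmer group had the probe well above background, the fold is a lower bound and is written "at least".

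**Figure D1:**
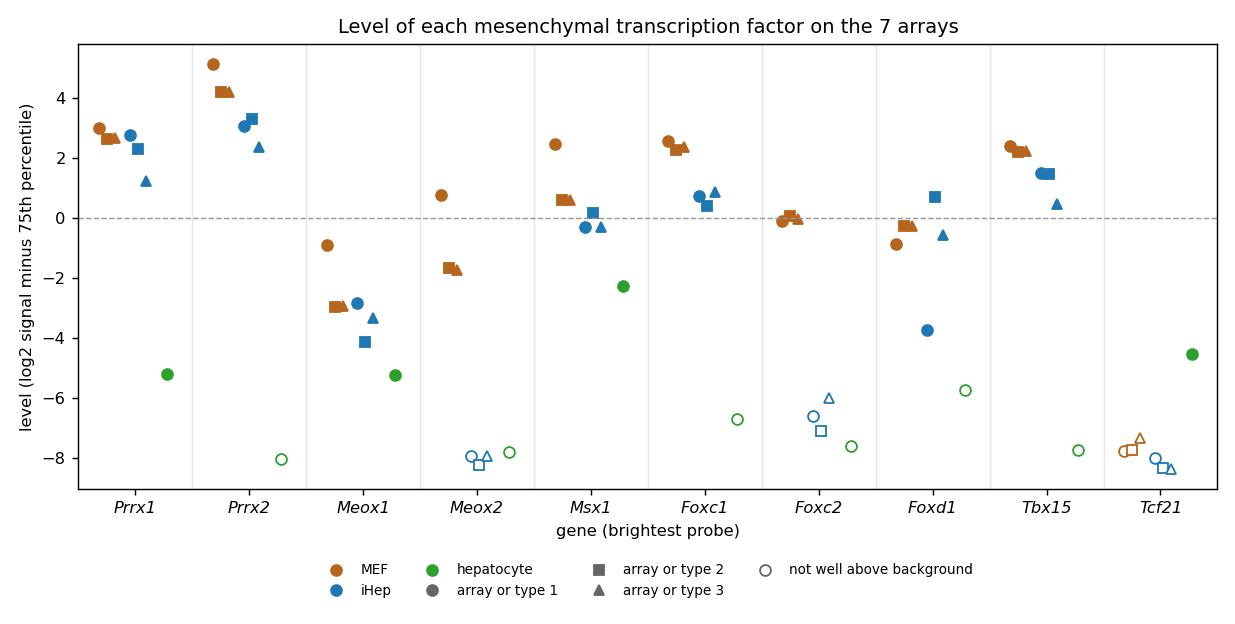
Level of each member (y axis, log2 signal minus the 75th percentile of the array) on the 7 arrays, with colour for the group, marker shape for the array or type and open markers for signals not well above background. Prrx1, Prrx2, Foxc1 and Tbx15 were well above background on all MEF and iHep arrays and lowest on the hepatocyte array, while Foxc2 and the brightest Meox2 probe, the one plotted, were above background on the MEF arrays alone.

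Prrx1 and Prrx2 are paired-related homeobox factors of limb and facial mesenchyme with shared roles in skeletal development. Prrx1 had levels of 3.002, 2.62 and 2.66 on the 3 MEF arrays, of 2.75, 2.30 and 1.21 on iHep types 1, 2 and 3, and of -5.21 on the hepatocyte array. The iHep arrays of types 1 and 2 lay within or near the MEF range, type 3 lay below it, and the hepatocyte array was far lower. The mean level was 2.82 ± 0.26 (SD, n = 2) in MEF and 2.09 ± 0.79 (SD, n = 3) in iHep. That is a change of -0.73 ± 0.50, which did not pass the test (limma adjusted p = 0.336), whereas iHep exceeded the hepatocyte array by 7.29 ± 0.63 (limma adjusted p = 0.00107).

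Prrx2 had levels of 5.11, 4.19 and 4.19 on MEF, of 3.07, 3.28 and 2.36 in iHep and of -8.02, not well above background, on the hepatocyte array. Every iHep array was below every MEF array and well above the hepatocyte array. Prrx2 was 3.35-fold lower in iHep than in MEF (change -1.75 ± 0.42, limma adjusted p = 0.0408). It was at least 405-fold higher in iHep than in hepatocytes (limma adjusted p = 0.000266). The call against MEF is a narrow one, since 8 of 14 other settings gave an adjusted p of 0.0505 to 0.182, and without MEF 1 the change was -1.29.

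The 6 Prrx1 probes did not all read alike. The probe described above lies on chromosome 1 from 165094518 to 165094577 in build mm8, the build of all probe positions given here, and 2 probes elsewhere in the same transcript model gave changes of -0.88 and -0.68. Those 2 were not well above background on the hepatocyte array (-7.81 and -8.07), unlike the first. The probe for a further RefSeq transcript, from 165083721 to 165083780, gave -1.09 ± 0.45 (limma adjusted p = 0.143). A dim probe designed from a cDNA clone, from 165089749 to 165089808, gave the opposite sign, 0.27 ± 0.48 (limma adjusted p = 0.719), and the sixth was too dim to test. None of the tested Prrx1 probes passed. The Prrx2 probe lies on chromosome 2 from 30703082 to 30703142.

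Msx1, a homeobox factor that answers bone morphogenetic protein signals in tooth, palate and limb, split the MEF arrays. Its levels were 2.47 on MEF 1 but 0.58 and 0.60 on MEF 2 and MEF 3, then -0.32, 0.16 and -0.32 in iHep and -2.27 on the hepatocyte array. All iHep arrays were below all MEF arrays, but the gap to MEF 2 and MEF 3 was smaller than the gap within MEF. The change in iHep was -1.69 ± 0.59 and did not pass (limma adjusted p = 0.103). Its size hung on MEF 1, since it was -0.75 without MEF 1 (limma adjusted p = 0.237) and -2.63 on slide 1, against MEF 1 alone (limma adjusted p = 0.0299). In that slide fit the spread comes from the iHep arrays, and the lone MEF array was assumed to vary like them. Hepatocytes were 13.97-fold lower than MEF (change -3.80 ± 0.79, limma adjusted p = 0.0134).

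A second Msx1 probe, spotted 10 times on each array, gives the spread between spots. Its means were -0.14, -2.29 and -2.25 on the MEF arrays and -3.16, -2.55 and -3.06 in iHep, with an SD between spots of 0.06 to 0.13 on these arrays. The gap between MEF 1 and the other MEF arrays was thus many times the spread of the spots. This probe gave a change of -1.71 ± 0.66 (limma adjusted p = 0.121) and was not well above background on the hepatocyte array. The probes sit side by side on chromosome 5, from 38109315 to 38109374 and from 38109253 to 38109309.

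Meox1 and Meox2 are homeobox factors of the somites, and Meox2 is also known in limb muscle and vessels. Meox1 had levels of -0.91, -2.96 and -2.93 on MEF, of -2.82, -4.12 and -3.34 in iHep and of -5.22 on the hepatocyte array, where it was still well above background. MEF 1 stood above the rest, and type 1 overlapped MEF 2 and MEF 3. The change in iHep was -1.50 ± 0.72 and did not pass (limma adjusted p = 0.195), and it was -0.48 without MEF 1 and -2.52 on slide 1. Hepatocytes were 9.80-fold lower than MEF (limma adjusted p = 0.0375), a call that was lost in 4 of 12 other settings, among them without MEF 1, without iHep 1 and without iHep 3, at adjusted p-values of 0.0538 to 0.0833. A second Meox1 probe gave a change of -1.30 in iHep and was not well above background on the hepatocyte array.

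Meox2, at its brightest probe, had levels of 0.76, -1.66 and -1.74 on MEF, against -7.92, -8.22 and -7.92 in iHep and -7.80 on the hepatocyte array, none of these 4 well above background. The MEF and iHep arrays did not come near each other. Meox2 was at least 47.9-fold lower in iHep (change -7.55 ± 0.73, limma adjusted p = 0.00378) and at least 39.0-fold lower in hepatocytes (limma adjusted p = 0.00345). The iHep call held in all 14 other settings with that probe or the mean of probes, but its size did not: the change was -6.32 without MEF 1, -5.11 as the mean of the probes and -3.33 with normexp background. With no measured level of this probe in iHep or hepatocytes there is no fold between them.

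The loss of Meox2 signal was complete at the probe from 37689488 to 37689547 on chromosome 12 but not at the other. A second probe, whose ends lie at 37677696 and 37688419 and which therefore reads across a gap in the genome, had -3.10, -5.50 and -5.46 on MEF and -8.05, -4.47 and -8.37 in iHep. On type 2 this probe was well above background and brighter than on MEF 2 and MEF 3. It did not pass the test (change -2.68 ± 1.42, limma adjusted p = 0.227).

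Foxc1 and Foxc2 are close forkhead relatives with overlapping roles in somites, heart and vessels, and Foxc2 also shapes lymphatic valves. Foxc1 had levels of 2.54, 2.27 and 2.34 on MEF, of 0.71, 0.39 and 0.86 in iHep and of -6.69, not well above background, on the hepatocyte array. The groups were tight and did not overlap. Foxc1 was 3.40-fold lower in iHep (change -1.77 ± 0.23, limma adjusted p = 0.00762). It remained at least 85.2-fold higher in iHep than in hepatocytes (limma adjusted p = 0.00019). Without MEF 1 the change against MEF was -1.65 but the adjusted p rose to 0.0603.

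Foxc2 had levels of -0.12, 0.07 and -0.03 on MEF, and of -6.59, -7.08 and -5.999 in iHep and -7.58 on the hepatocyte array, none of these well above background. The MEF arrays lay close together, and the drop to iHep was many times their spread. Foxc2 was at least 61.6-fold lower in iHep (change -6.51 ± 0.36, limma adjusted p = 0.000952) and at least 52.2-fold lower in hepatocytes (limma adjusted p = 0.00045). The iHep call held in all 14 other settings. The Foxc1 probe lies on chromosome 13 from 31816853 to 31816912 and the Foxc2 probe on chromosome 8 from 124004770 to 124004829.

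Within each pair of relatives the changes were unequal in size. The iHep change of Foxc2 minus that of Foxc1 was -4.74, that of Meox2 minus that of Meox1 was -6.05 and that of Prrx2 minus that of Prrx1 was -1.01. In each of the 3 pairs every iHep array had a lower difference between the relatives than every MEF sample. These values use the brightest probe of each gene. The second Meox2 probe, with a change of -2.68 ± 1.42, was brighter on type 2 (-4.47) than on MEF 2 and MEF 3 (-5.50 and -5.46). The order of the Meox pair therefore cannot be taken to hold at that probe. An exact permutation test of 2 against 3 samples can reach no two-sided p below 0.2, which is the value all 3 pairs gave. For Foxc2 and Meox2 the iHep signals were not well above background, so these differences carry background values and are no bounds. Foxc2 and Meox2 also entered the test through MEF alone, where they were high, so the filter favoured a lower difference in iHep for their pairs. How many other gene pairs show such an order was not counted.

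Foxd1, a forkhead factor of kidney stroma and other mesenchyme, was the member on which the iHep types disagreed most. Its levels were -0.89, -0.26 and -0.26 on MEF, -3.74, 0.69 and -0.58 on types 1, 2 and 3, and -5.74, not well above background, on the hepatocyte array. Type 1 was far below MEF, type 2 above it and type 3 inside its range. A second probe, also on chromosome 13, gave the same order, with -4.74, -0.13 and -1.36 on the types against -1.65, -0.81 and -0.77 on MEF. No change was called (-0.64 ± 1.34, limma adjusted p = 0.763), and without iHep 1 the sign turned, to 0.63.

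Tbx15 is a T-box factor of limb skeleton, skin and fat precursors. It had levels of 2.38, 2.19 and 2.21 on MEF, of 1.48, 1.45 and 0.45 in iHep and of -7.73, not well above background, on the hepatocyte array. Every iHep array was below every MEF array, with type 3 lowest. The change of -1.16 ± 0.38 did not pass (limma adjusted p = 0.0881), although it did in 3 of 14 other settings, with a lowest adjusted p of 0.0320. Tbx15 was at least 118-fold higher in iHep than in hepatocytes (limma adjusted p = 0.000333), and its further probes gave changes of -1.18 and -1.26 against MEF.

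Tcf21, a basic helix-loop-helix factor of visceral mesenchyme and the epicardium, went against the other members. Its signal did not clear background on the MEF arrays (-7.77, -7.74 and -7.34) or the iHep arrays (-8.01, -8.32 and -8.35), and reached -4.54 on the hepatocyte array. It was at least 3.19-fold higher in hepatocytes than in MEF (limma adjusted p = 0.00105) and at least 2.84-fold higher than in iHep (limma adjusted p = 0.000671). Tcf21 entered the test through the hepatocyte array alone, where it was high, so the filter itself favoured both calls. It is also known from hepatic stellate cells. Markers of other liver cells were present on that array, on which 5 of 10 stellate and mesothelial markers were well above background. Of the 9 tested, Lrat (-2.13) and Reln (-0.12) were called higher there than in MEF, beside 28.4% of all tested genes. Des, Msln and Upk3b were called lower, beside 25.1% of all tested genes. The 10 stellate and mesothelial markers had a summed linear level of 1.75, against 6.07 to 8.33 on MEF. No MEF or iHep array had Lrat well above background. All 10 endothelial and all 12 macrophage markers were also well above background on the hepatocyte array, and the part of any of these cells in the Tcf21 signal was not tested.

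Across the members, 4 of 10 were called lower in iHep than in MEF (Prrx2, Meox2, Foxc1 and Foxc2) and 0 higher by limma, also 0 at an unadjusted p under 0.05, beside 13.2% of all tested genes called lower and 10.1% called higher, 23.3% in all. Without MEF 1 the count was 2, Foxc2 and Meox2. Both entered the test through MEF alone, where they were high, so the filter itself favoured a call of lower. Every iHep array lay below every MEF array for Prrx2, Msx1, Foxc1 and Tbx15, among the 7 members measured on all arrays of both groups, and this held for 31.3% of all tested genes. It also held for Foxc2 and Meox2, which entered the test through MEF, where they were high, and for Tcf21, whose order here is one of background signals. The median change of the members was -1.60, or -2.04 on slide 1 alone, against -0.04 over all tested genes. Taking each probe in its own right, 4 of 20 tested member probes were lower and 0 higher, beside 13.7% of 28909 probes called lower. All 10 genes entered the test, Tcf21 through the hepatocyte array alone.

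**Figure D2:**
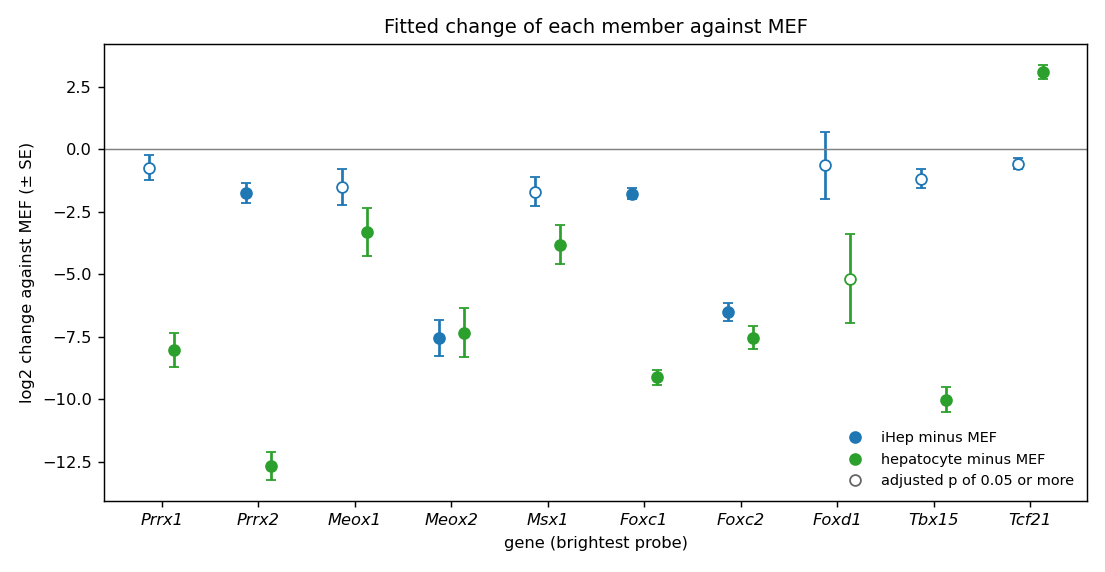
Fitted log2 change of each member (x axis) in iHep and in hepatocytes, both against MEF (y axis), with bars of 1 standard error, filled where the adjusted p was under 0.05 and open otherwise. In iHep 4 members were called lower, beside 13.2% of all tested genes. In hepatocytes 8 were called lower and Tcf21 higher, beside 25.1% and 28.4% of all tested genes. Meox2 and Foxc2 entered the test through MEF alone and Tcf21 through the hepatocyte array alone, the groups where they were high.

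In hepatocytes 8 of 10 members were called lower than in MEF, all but Foxd1 and Tcf21, beside 25.1% of genes called lower and 28.4% called higher, 53.5% in all. Of the 8, Meox2 and Foxc2 entered the test through MEF alone, where they were high. The hepatocyte level was below every MEF array for 9 of 10 members and for 43.2% of genes, and the median change was -7.43 against 0.14 over all genes. Foxd1 was at least 35.9-fold lower but did not pass (change -5.17 ± 1.80, limma adjusted p = 0.0612). In iHep against hepatocytes 4 members were called higher, namely Prrx1, Prrx2, Foxc1 and Tbx15, and Tcf21 was called lower, beside 22.1% and 27.1% of genes, 49.2% in all. These comparisons share the MEF, iHep or hepatocyte arrays. Tcf21 entered the test through the hepatocyte array alone, where it was high, so the filter itself favoured its calls. Because the hepatocyte group is a single array, it was assumed to vary like the others.

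By the brightest probe, the same members were well above background on each of the 3 iHep types. Levels differed, most for Foxd1, at -3.74, 0.69 and -0.58 on types 1, 2 and 3. The second Meox2 probe was well above background on type 2 alone among the types. Prrx1, Prrx2, Meox1, Msx1, Foxc1, Foxd1 and Tbx15, 7 of 10, were well above background on each type, and 4 of 10 were on the hepatocyte array (Prrx1, Meox1, Msx1 and Tcf21), by the brightest probe of each. Against the MEF mean the median difference of the members was -1.65 in type 1, -1.37 in type 2 and -1.73 in type 3, and between -0.07 and -0.04 over all genes. A difference of more than 1 below MEF was seen in 6 members in type 1, 6 in type 2 and 8 in type 3. The share of all tested genes past that cut was between 10.5% and 18.6% in type 1. It was between 12.5% and 20.3% in type 2 and between 13.6% and 24.5% in type 3. Each count includes Meox2 and Foxc2, which entered the test through MEF alone, where they were high. With 1 array each, differences between types were not tested.

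**Figure D3:**
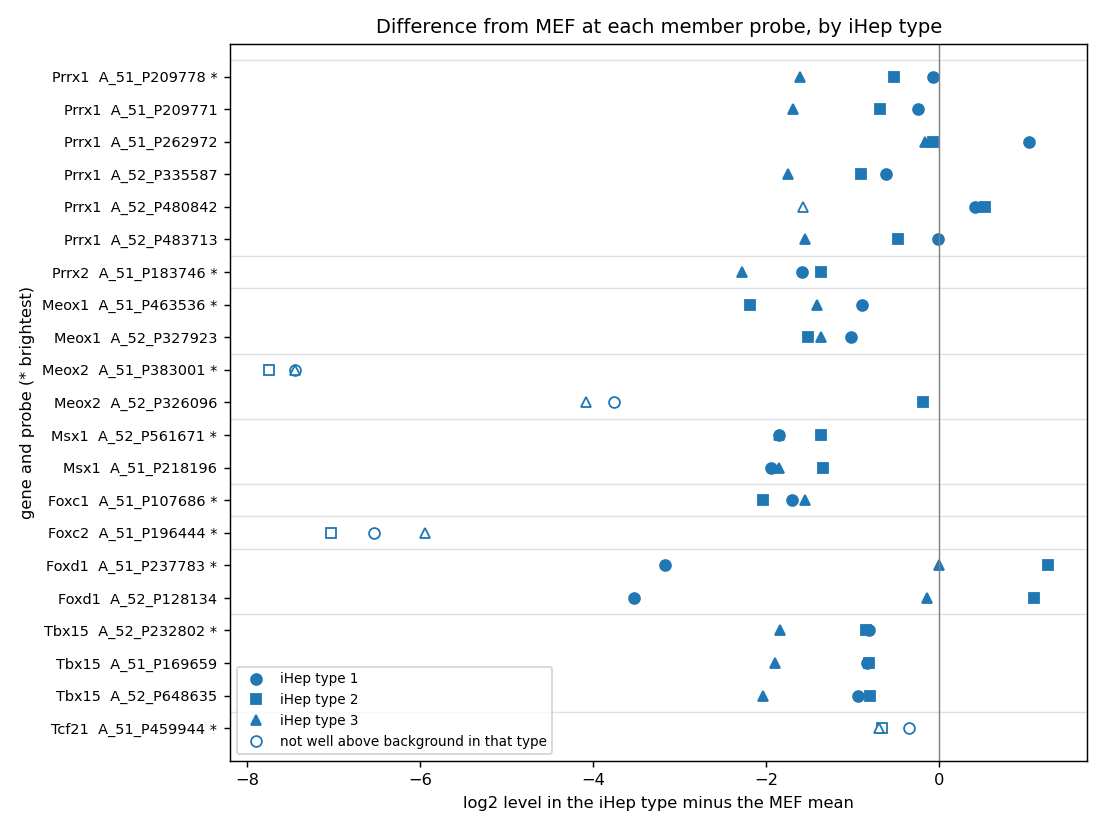
Level of each of the 21 member probes in each iHep type minus the MEF mean (x axis, log2), a row for each probe, with marker shape for the type and open markers for signals not well above background in that type. The Foxd1 probes share their order over the types, and the second Meox2 probe stands above background on type 2.

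The MEF preparations differed most in Meox2, Meox1 and Msx1. MEF 1 exceeded the mean of MEF 2 and MEF 3 by 2.46 for Meox2 (5.50-fold), by 2.04 for Meox1 (4.10-fold) and by 1.88 for Msx1 (3.68-fold). Few genes differed by more between these samples, 0.685% of those tested for Meox2, 1.35% for Meox1 and 1.81% for Msx1. Prrx2 differed by 0.92, with 12.98% of genes beyond it. Foxc1, Foxc2, Tbx15 and Prrx1 differed by 0.36 or less in size between the preparations. These are single samples, so the difference has no test, and slide and preparation cannot be told apart.

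Markers of several cell types were also lower in iHep. There 10 of 12 fibroblast markers, 9 of 12 macrophage markers and 4 of 10 endothelial markers were called lower, beside 13.2% of all genes. Endothelial markers had a summed linear level of 2.70 to 3.47 on MEF and 0.323 to 0.568 on iHep, and Kdr, Erg and Emcn, well above background on every MEF array, were so on no iHep array. Vwf, another endothelial gene, was called higher in iHep (3.51-fold, limma adjusted p = 0.0321). No MEF or iHep array had Pecam1, Cdh5 or Tie1 well above background. The summed macrophage markers were 71.9 to 113 on MEF and 7.02 to 16.7 on iHep. Cd14, called 25.1-fold higher in iHep (limma adjusted p = 0.0041), made up most of the iHep sums, which were 0.513 to 1.92 without it. Of the 9 stellate and mesothelial markers tested, 3 were called lower (Des, Reln and Upk3b). Their sum was 6.07 to 8.33 on MEF and 15.9 to 103 on iHep, or 2.60 to 2.72 and 0.263 to 2.16 without Msln, a mesothelial surface protein whose change did not pass (limma adjusted p = 0.0599). Fewer cells of a type and less RNA per cell cannot be told apart in RNA of whole cultures, and the part of these markers in the results was not tested.

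Other transcription factors of mesenchyme were taken from a list of 72 names. Of 64 that were tested, 25 were called lower in iHep and 1 higher, beside the 13.2% and 10.1% of all genes, with a median change of -1.42. The homeobox class had 9 of 22 lower, the forkhead class 2 of 6, the T-box class 2 of 6, the basic helix-loop-helix class 2 of 4 and the rest 10 of 26. Foxf2, a forkhead factor of gut mesenchyme, was the only gene called higher, by 2.34 ± 0.39 or 5.05-fold (limma adjusted p = 0.0154). It went from 0.21, -0.72 and -0.91 on MEF to 1.67, 2.26 and 2.17 in iHep. Among forkhead genes, then, Foxc1, Foxc2, Foxp2 and Foxs1 were called lower and Foxf2 higher. The median change of the forkhead class outside the members was 0.83.

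The lowest in iHep was Scx, a tendon factor, at 4.43, 3.07 and 3.15 on MEF and -3.87, -2.66 and -3.88 in iHep, a 151-fold difference (change -7.24 ± 0.58, limma adjusted p = 0.00232). Pax1, a factor of the vertebral column, was at least 26.8-fold lower. Tbx4, a factor of hindlimb outgrowth, was at least 8.44-fold lower. Lhx9, a factor of limb and gonad, was 31.2-fold lower. Among the smaller called decreases were those of Foxs1 (-1.42) and Meis1 (-1.76). In hepatocytes 43 of the 64 were called lower than in MEF and 1 higher, beside 25.1% and 28.4% of all tested genes.

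**Figure D4:**
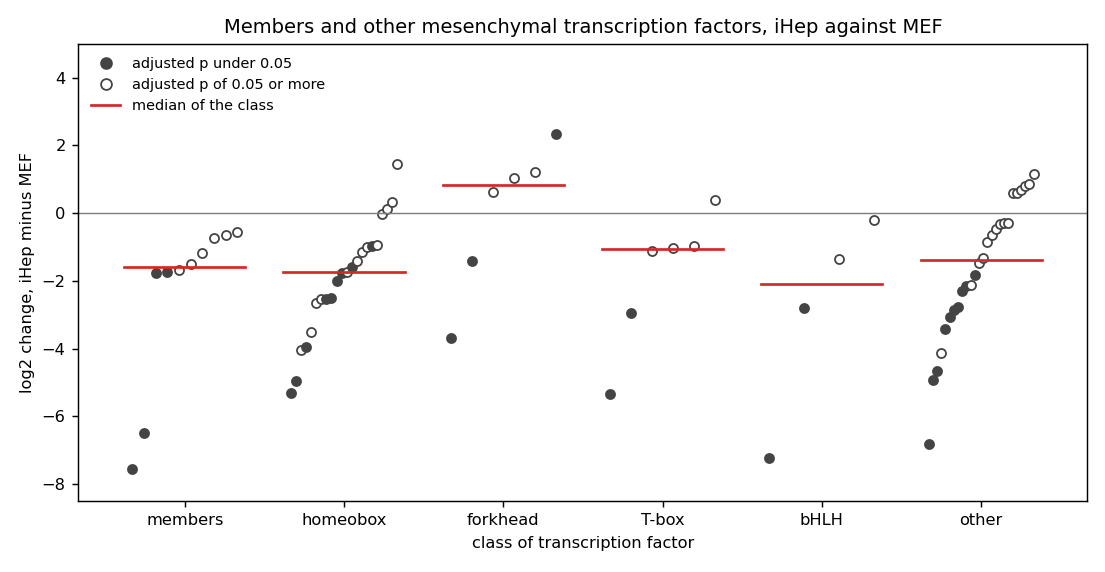
Log2 change in iHep against MEF (y axis) of the members and of the other mesenchymal transcription factors by class, filled where the adjusted p was under 0.05, with the class median as a line. Meox2 and Foxc2 lie among the lowest genes shown, near Scx and Pax1, and Foxf2 is the called gene above 0.

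Of 11 tested signals reported upstream of the members, 3 were higher in iHep and 2 lower, beside 10.1% and 13.2% of all genes, with a median change of -0.07. Ihh, a hedgehog ligand, was at least 11.6-fold higher (limma adjusted p = 0.0208), and Bmp7 and Fgf8 rose by 2.04 and 1.496 (limma adjusted p = 0.0119 and 0.0101). Fgf10, a mesenchymal growth factor, was at least 36.3-fold lower (limma adjusted p = 0.00395). Gli3, a transcription factor of the hedgehog pathway, fell by 2.88 (limma adjusted p = 0.0112). Of 8 tested genes reported downstream, 1 was called higher and 0 lower, beside 10.1% and 13.2% of all genes. Their median change was -1.07. The gene called higher was Dll4, a Notch ligand (at least 14.8-fold, limma adjusted p = 0.00152). Tnc and Cxcl12 had changes of -3.27 and -2.45 that did not pass (limma adjusted p = 0.0691 and 0.0543).

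The genes with a pattern most like the median of the 9 members that were on in MEF were Hmgn2, Smc2, Ctdspl2, a transcript with no symbol and Socs1, at Pearson r of 0.9996, 0.996, 0.996, 0.996 and 0.994 over 6 samples. Among members, which themselves enter that median, r ran from 0.988 for Prrx2 to 0.539 for Meox2. The 5 genes were picked as the highest of 16112 compared, of which 988 had r over 0.95. For each of these 5 the hepatocyte array was lowest. Hmgn2, for instance, was at 5.45, 4.89 and 4.87 on MEF, at 4.54, 4.76 and 4.49 in iHep and at 2.43 on the hepatocyte array.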

How the data were processed

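RNA of 7 samples was read on 1-colour arrays with Agilent Feature Extraction 9.5.1.1, per the submitters' processing notes. Per the file headers, the processed signal is a background-subtracted intensity, and 0 or 1 flags of another unit (other) mark spots well above background, saturated or outlying; both were deposited unscaled between arrays. The deposited value table, also intensity, served as an alternative. Outlier spots were dropped, repeated spots averaged, and log2 levels computed from the deposited intensity minus the array's 75th percentile. The brightest probe stood for a gene, named through the RefSeq GRCm38.p6 table or the files. Genes whose probe stood well above background throughout at least 1 group were tested with limma 3.58.1 in R 4.3.3, 1 fit of 3 groups and Benjamini-Hochberg adjustment. Bounds ("at least") set the brighter mean against the lowest level well above background. Arrays limit precision by their number. Exon annotation of mm8 was not used here.

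The MEF and iHep numbers in the labels did not pair the samples. The members and lists were chosen with earlier results of these data known. All members are named; of other mesenchymal factors, the 5 lowest and 5 highest called, of which some are not reported here, and of upstream and downstream genes those called. Tnc and Cxcl12 were named after their values were seen. The call rule and the test were checked on simulated data.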

Additional observations from a re-analysis of the deposited data

How the results depend on the processing

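The count of 4 members called lower in iHep ran from 2 to 4 when a replicate was left out, with 2 without MEF 1, was 6 with 3 separate MEF arrays, 5 with the label number as a replicate block, and 3 with quantile normalization, the authors' value table or no filter. The count of all genes called between iHep and MEF, 4458, was 7306 with 3 separate MEF arrays, 1668 within slide 1, 5448 with the replicate block and from 1638 (without MEF 1) to 4647 (without iHep 3) when a replicate was left out, with 2868 without iHep 1. Same-numbered MEF and iHep arrays had correlations of their deviations of 0.029, -0.015 and -0.00053, so the number was not taken as a pairing. Signs turned for Foxd1 in iHep against MEF, whose change ran from -1.59 to 0.63 (without iHep 1), and for Tcf21, to 0.017 with normexp background. In iHep against hepatocytes they turned for Meox2, to 0.20 with quantile normalization and 0.23 in the authors' value table, and for Foxc2, to -0.23 with normexp. The Prrx1 probe from a cDNA clone, chosen as an alternative after seeing the data like the other single-probe fits, gave 0.27. Apart from Foxd1 these are levels near background, and the cause was not tested. Of the settings tried on single members, 358 kept direction and side of the threshold, 14 lost the call and 12 gained it. Signals near background limit every change of Meox2, Foxc2 and Tcf21, and 1 hepatocyte array and 2 MEF samples limit the rest.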

Other observations

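Some patterning factors on the list of other mesenchymal factors differed between the iHep types by more than any member but Foxd1. These genes were picked after their values were seen, and each type has 1 array, so there is no test. Alx1, a craniofacial homeobox factor, had levels of -1.63, -1.29 and -1.32 on MEF and -0.92 on type 3, but was not well above background on type 1 or type 2 (-7.66 and -7.99). Barx1, a factor of stomach and facial mesenchyme, followed the same split, at -2.57 on type 3 and at -5.82 and -8.03, not well above background, on types 1 and 2. Mkx, a tendon factor, was at -0.54 on type 3, within the MEF range of -0.78 to -0.51, and at -4.45 and -4.52 on types 1 and 2. Pitx1, a hindlimb factor, ran the other way, with 2.48 and 1.77 on types 1 and 2, -2.86 on type 3 and 1.68 to 2.04 on MEF.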
